A study of Mus musculus with 12 samples.

Results

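The miRNAs described here are mmu-miR-15a, mmu-miR-15b, mmu-miR-16, mmu-miR-322 and mmu-miR-503 of the mouse (written without the mmu prefix below), 5 of the 611 mouse miRNAs on the array. They were chosen by name, because they belong to the miR-15/16 seed group and its relatives, and the rule uses no measured value. The cells were embryonic fibroblasts of the C57BL/6 background. Wild-type cells (ATF6bWT, WT below) and cells deficient in ATF6b (KO below) were each left untreated or given tunicamycin at 2 ug/mL for 12 h or for 24 h. The 6 groups of genotype and treatment have 2 arrays each, from separate experiments according to the design text, whose stated aim was to extract ATF6b-dependent responses at 12 h. Both genotypes, treated or not, grew in medium with serum, 2-mercaptoethanol and antibiotics. How the ATF6b allele was removed, and from how many embryos each genotype's cells came, are not given in the sources used here.

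A miRNA directs the silencing complex to messenger RNAs mainly through its seed, the short stretch near its 5′ end that pairs with the target. miRNAs of the miR-15/16 group share that seed, and they are known for holding back the cell cycle by lowering cyclin D1, cyclin E1, Cdc25a and other drivers of G1, as well as the survival factor Bcl2. miR-15a and one miR-16 gene lie in the Dleu2 locus, a region deleted in many chronic lymphocytic leukaemias. miR-15b and the other miR-16 gene lie in Smc4, which encodes a condensin subunit. miR-322, the mouse counterpart of human miR-424, and miR-503 are made together from a cluster on the X chromosome that is known for its rise during muscle differentiation. Tunicamycin blocks N-linked glycosylation, which leaves misfolded proteins in the endoplasmic reticulum. ATF6b sits in the membrane of that organelle and, once cleaved under stress, moves to the nucleus as a transcription factor.

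The mature sequences are shown because the seed defines the group and because the letters after it differ between the members. Whether each probe read only its own member was not tested. They are the RefSeq 5p strands on build GRCm38.p6, written 5′ to 3′ with the seed (bases 2 to 8) in capitals. The array's names carry no arm. The unstarred names were taken to be the 5p strands, since the starred names on the array denote the other strand.
mmu-miR-15a: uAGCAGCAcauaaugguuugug
mmu-miR-15b: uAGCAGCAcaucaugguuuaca
mmu-miR-16: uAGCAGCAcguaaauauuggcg
mmu-miR-322: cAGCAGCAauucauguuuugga
mmu-miR-503: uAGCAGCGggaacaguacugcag
For comparison, miR-195 and miR-497 carry the same seed as the first 4 and are also on the array.
mmu-miR-195: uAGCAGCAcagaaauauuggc
mmu-miR-497: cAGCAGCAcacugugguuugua

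The first 4 members share the seed AGCAGCA, which 10 of the 1679 mature entries of the RefSeq table carry (0.596%). miR-503 has the seed AGCAGCG, which 1 entry carries, so it is a relative and not a member by exact seed. Position by position from the 5′ end, miR-15a and miR-15b were identical at 18 of 22 bases, miR-15a and miR-16 at 16, miR-15b and miR-16 at 14, and miR-322 and miR-16 at 12. miR-503 matched each of the others at 11 or 12. The genes fall into 3 places. miR-15b lies at chr3:69009775-69009796 on the plus strand with miR-16 from Mir16-2 at chr3:69009918-69009939, 121 bases further on, and both are within the span of the protein-coding gene Smc4. miR-15a lies at chr14:61632075-61632096 on the minus strand with miR-16 from Mir16-1 at chr14:61631936-61631957, 117 bases away, and both are within the long non-coding RNA gene Dleu2. miR-322 at chrX:53054306-53054327 and miR-503 at chrX:53054027-53054049 lie on the minus strand, 256 bases apart, within the long non-coding RNA gene C430049B03Rik. Mir16-1 and Mir16-2 give the same mature letters, so the miR-16 signal cannot be divided between the 2 genes.

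Levels are the background-subtracted intensity of a miRNA, summed over its 2 probes of 10 spots each and given as a percent of the same array's 75th percentile over the 93 mouse miRNAs detected on every array. That percentile lay between 412 and 623 intensity units on 9 arrays and at 257, 246 and 208 on WT 24 h, KO 12 h and KO 24 h replicate 2, and 114 to 189 mouse miRNAs were detected per array. By the scan times in the scanner files, each slide has 2 runs (1 and 2 untreated, 3 and 4 treated), with replicate 1 of both genotypes in one and replicate 2 in the other. The untreated arrays are on 1 slide and the treated arrays on another, so treatment and slide cannot be told apart. WT arrays occupy 1 row of each slide and KO arrays the other row, and genotype, slide row and cell preparation cannot be told apart either. ATF6b mRNA is not measured by a miRNA array, so the genotype was not checked. Of 6 fibroblast miRNAs, 5 were detected on all 12 arrays and miR-145 on 1. Of 6 epithelial miRNAs, miR-200b, miR-200c and miR-141 were detected on both KO 12 h and both KO 24 h arrays, miR-200a on 1 of each pair, and miR-429 and miR-205 on none. The summed epithelial level was 256.2% to 371.7% on the KO 12 h arrays and 253.5% to 313.1% on the KO 24 h arrays, against 0% to 1.88% on the other 8. Of 4 muscle miRNAs, miR-206 was detected on 8 arrays (both arrays of WT 12 h and of WT 24 h and 1 of each other group) and miR-1, miR-133a and miR-133b on none. Of 9 pluripotency miRNAs, miR-290-3p and miR-294 were each detected on 1 untreated KO array and the others on none. Blood, neural, and endothelial and liver markers were detected on 0 arrays. Each comparison below that involves treated KO cells therefore stands beside this epithelial signal, whose part in the result was not tested.

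miR-15a, miR-15b and miR-16 were detected on all 12 arrays, and none of the members had a saturated spot. miR-322 was detected on all 6 WT arrays but only on KO untreated replicate 2 and KO 24 h replicate 1 among the KO arrays. miR-503 was detected on 0 of 12 arrays, with summed intensities between -13.9 and -0.82, so it has no measured level in any group and was not tested. The other members passed the requirement of detection on both arrays of at least 1 group, and 4 of the 5 entered the test among 176 mouse miRNAs. miR-322 met that requirement through its WT groups, so counts over the tested members describe these miRNAs and are no support of their own. The nearest relatives were silent on these arrays: none of the 5 star strands of the members, of miR-195, miR-497 and miR-1907, and of the 7 entries for miR-351, miR-542 and miR-450, which neighbour miR-322 and miR-503, was detected on any array.

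**Figure D1:**
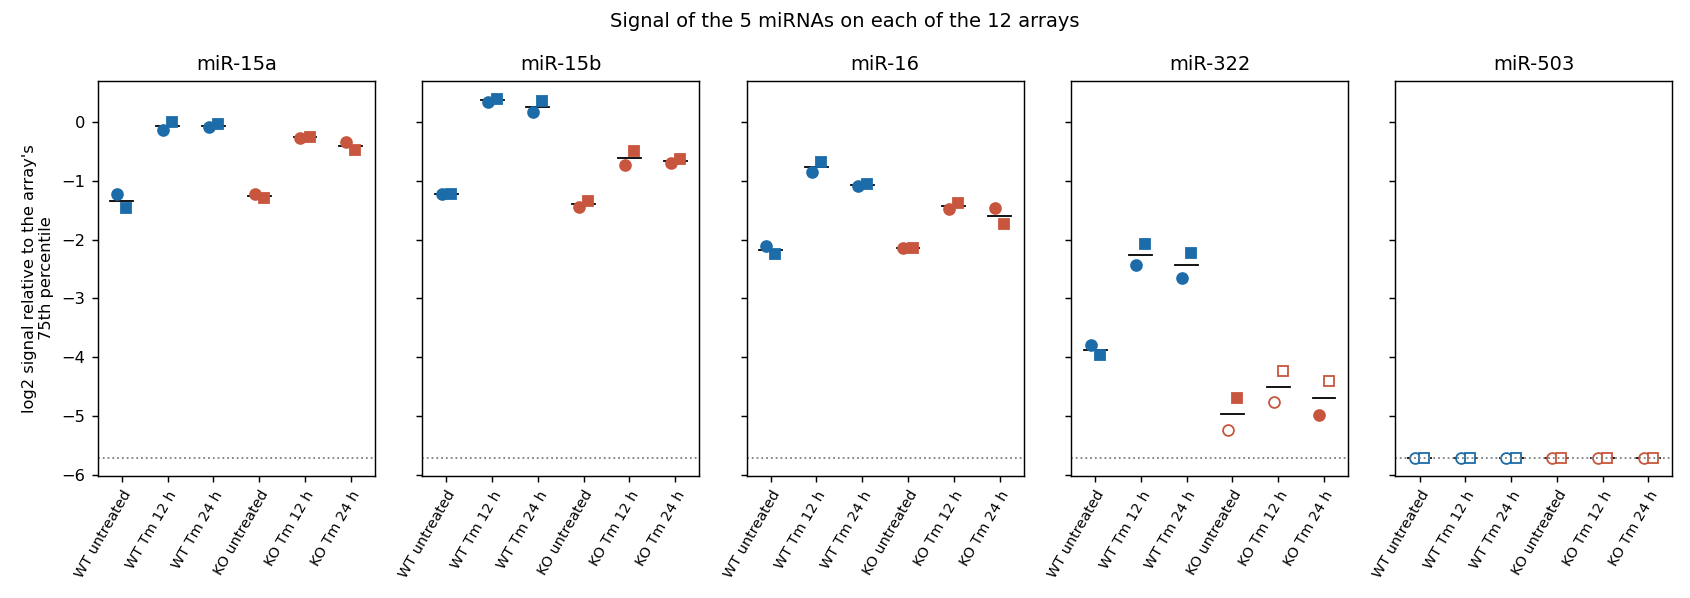
Log2 signal of miR-15a, miR-15b, miR-16, miR-322 and miR-503 relative to each array's 75th percentile (vertical axis, log2), for the 6 groups of WT (blue) and KO (red) cells left untreated or given tunicamycin (Tm) for 12 h or 24 h. Circles are replicate 1, squares replicate 2, open symbols arrays on which the miRNA was not detected, short lines group means and the dotted line the floor at -5.71. The treated WT arrays of the first 4 miRNAs sit above their untreated arrays, miR-322 is low on every KO array, and miR-503 is at the floor throughout.

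In WT cells tunicamycin was accompanied by higher levels of all 4 tested members, at both times. miR-15b, which represses cyclins D1 and E1, stood at 42.7% and 42.6% of the 75th percentile on the untreated arrays (mean 42.7% ± 0.0435 SD, n = 2). It reached 127.0% and 131.1% at 12 h, and 112.3% and 127.2% at 24 h. Both treated pairs lay far above the untreated pair and overlapped each other. The rise was 1.60 ± 0.13 SE on the log2 scale at 12 h, or 3.03-fold (limma, Benjamini-Hochberg adjusted p = 5.08e-05), and 1.49 ± 0.13 at 24 h (adjusted p = 8.94e-05).

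miR-15a, the Dleu2 member best known as a repressor of Bcl2, was at 42.6% and 36.4% in untreated WT cells, at 90.5% and 100% at 12 h, and at 93.8% and 97.5% at 24 h. The treated arrays again lay clear of the untreated ones, and the 24 h values fell inside the 12 h range. The rises were 1.27 ± 0.12 (2.42-fold, limma adjusted p = 0.000152) and 1.28 ± 0.12 (adjusted p = 0.000166). miR-16, made from both loci, was at 23.2% and 21.1% without treatment, at 55.1% and 62.4% at 12 h, and at 46.9% and 48.0% at 24 h. Its 12 h and 24 h arrays did not overlap, with the 24 h arrays lower. It rose by 1.41 ± 0.13 at 12 h (2.65-fold, adjusted p = 0.000152) and by 1.1 ± 0.13 at 24 h (adjusted p = 0.000537).

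miR-322, known from muscle cells for lowering Cdc25a, was the dimmest member that could be measured. It stood at 7.20% and 6.42% on the untreated WT arrays, at 18.4% and 23.6% at 12 h, and at 15.9% and 21.2% at 24 h. Replicate 2 was the higher treated array at both times. The summed level of the 4 muscle miRNAs, as a percent of each array's 75th percentile, was 2.59% to 3.20% on the untreated WT arrays, 5.30% to 7.59% at 12 h and 4.49% to 8.60% at 24 h, and 3.29% to 7.22% on the KO arrays; its part in the miR-322 result was not tested. The rises were 1.62 ± 0.30 at 12 h (3.07-fold, limma adjusted p = 0.00483) and 1.44 ± 0.30 at 24 h (adjusted p = 0.00618). The standard error was more than that of the other members because the arrays of a group lay further apart. These miR-322 calls were lost when arrays were quantile normalized (limma adjusted p = 0.0838 and 0.0824). With normexp background correction the rise shrank to 0.57 at 12 h (adjusted p = 0.427) and 0.54 at 24 h (adjusted p = 0.538). That correction adds an offset of 50 intensity units to each spot, and summed miR-322 intensities on the WT arrays were 34.6 to 113.7.

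All 4 tested members were thus called higher in WT cells at 12 h, where 14.2% of the 176 tested miRNAs were called higher and 38.1% in either direction. At 24 h all 4 were called higher, against 13.6% of the tested miRNAs and 43.2% called in either direction. The median change of the members was 1.50 at 12 h and 1.36 at 24 h on the log2 scale, and that of all tested miRNAs was -0.05 and -0.03. Among the 176 changes at 12 h, ordered from the largest rise, miR-322 ranked 21, miR-15b 22, miR-16 26 and miR-15a 32. The 12 h and 24 h comparisons share the untreated arrays, so they are not independent of each other. Without scaling, the WT rises at 12 h were 1.24 for miR-15a, 1.57 for miR-15b, 1.38 for miR-16 and 1.59 for miR-322 on the log2 intensity scale. At 24 h they were smaller than the scaled ones, at 0.76, 0.97, 0.58 and 0.92 in the same order. With the software's total the 24 h rise of miR-16 was not called (0.82, limma adjusted p = 0.166). Nor were the rises of miR-322 at 12 h (1.47, adjusted p = 0.409) and 24 h (1.16, adjusted p = 0.492). For miR-322 that total was 26.1 and 23.0 on the untreated WT arrays and 78.7 and 74.7 at 12 h. It was 0.1 on the KO arrays that did not detect miR-322, and the fit shares 1 spread per miRNA over all groups. The part of those KO values in the lost calls was not tested. With the percentile taken over all mouse miRNAs the 12 h rises were as large, from 1.25 to 1.60, but none was called (limma adjusted p from 0.0762 to 0.115). With the deposited values none was called either (0.186 to 0.275). Over all tested miRNAs these 2 settings called 3 and 0 in that comparison.

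In KO cells, miR-15a, miR-15b and miR-16 were higher after tunicamycin on the scaled values, while without scaling between arrays only miR-15a was, and only at 12 h. miR-15a was at 42.5% and 40.6% without treatment, at 82.5% and 84.1% at 12 h, and at 78.2% and 72.3% at 24 h. All treated arrays lay above the untreated ones. It rose by 1.00 ± 0.12 at 12 h (2.00-fold, limma adjusted p = 0.000504) and by 0.86 ± 0.12 at 24 h (adjusted p = 0.00124). miR-15b was at 36.8% and 39.3%, then at 59.7% and 71.2% at 12 h and at 61.6% and 64.6% at 24 h, with no overlap between treated and untreated arrays. Its rises were 0.78 ± 0.13 (1.71-fold, adjusted p = 0.0022) and 0.73 ± 0.13 (adjusted p = 0.00359).

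miR-16 was at 22.5% and 22.8% on the untreated KO arrays, at 35.9% and 38.5% at 12 h, and at 36.2% and 30.1% at 24 h. It rose by 0.72 ± 0.13 at 12 h (limma adjusted p = 0.00426) and by 0.54 ± 0.13 at 24 h (adjusted p = 0.0164), and with the slide run as a block the 24 h value was not called (0.51, adjusted p = 0.0515). The 24 h call was also lost without KO 24 h replicate 1 (adjusted p = 0.0716), KO untreated replicate 1 (0.0823) or KO untreated replicate 2 (0.0577). miR-322 was at 2.64% and 3.86% without treatment, at 3.66% and 5.30% at 12 h, and at 3.15% and 4.71% at 24 h. These pairs overlapped, and the changes of 0.46 ± 0.30 (adjusted p = 0.315) and 0.27 ± 0.30 (adjusted p = 0.545) were not called. Their 95% intervals were -0.24 to 1.16 and -0.43 to 0.97, which include both no change and rises as large as that of miR-15a.

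In the KO cells 3 of the 4 tested members were called higher at 12 h, against 21.6% of all tested miRNAs (25.6% in either direction), and 3 at 24 h, against 25.6% (30.7% in either direction). The KO rises depend on how the arrays were put on one scale. The summed intensity of miR-15b was 229.5 and 235.1 on the untreated KO arrays, 266.4 and 174.8 at 12 h and 253.7 and 134.3 at 24 h, so replicate 2 of each treated group was dimmer than the untreated arrays before scaling. Without scaling the KO changes at 12 h were 0.12 for miR-15a, -0.11 for miR-15b, -0.17 for miR-16 and -0.42 for miR-322. With the scaling, all tested miRNAs had a median change of 0.25 in KO cells at 12 h and 0.15 at 24 h, so relative to that median miR-15a stood higher by 0.76 and 0.70, miR-15b by 0.53 and 0.58, and miR-16 by 0.47 and 0.39. With normexp that median was 0.49 and 0.53, and the excess over it fell to 0.28 and 0.11 for miR-15a, 0.12 and 0.05 for miR-15b and 0.10 and 0.00 for miR-16. With quantile normalization, which set that median to 0 at 12 h, the rises of miR-15b (0.34, adjusted p = 0.338) and miR-16 (0.39, adjusted p = 0.166) were not called, and that of miR-15a was 0.72.

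**Figure D2:**
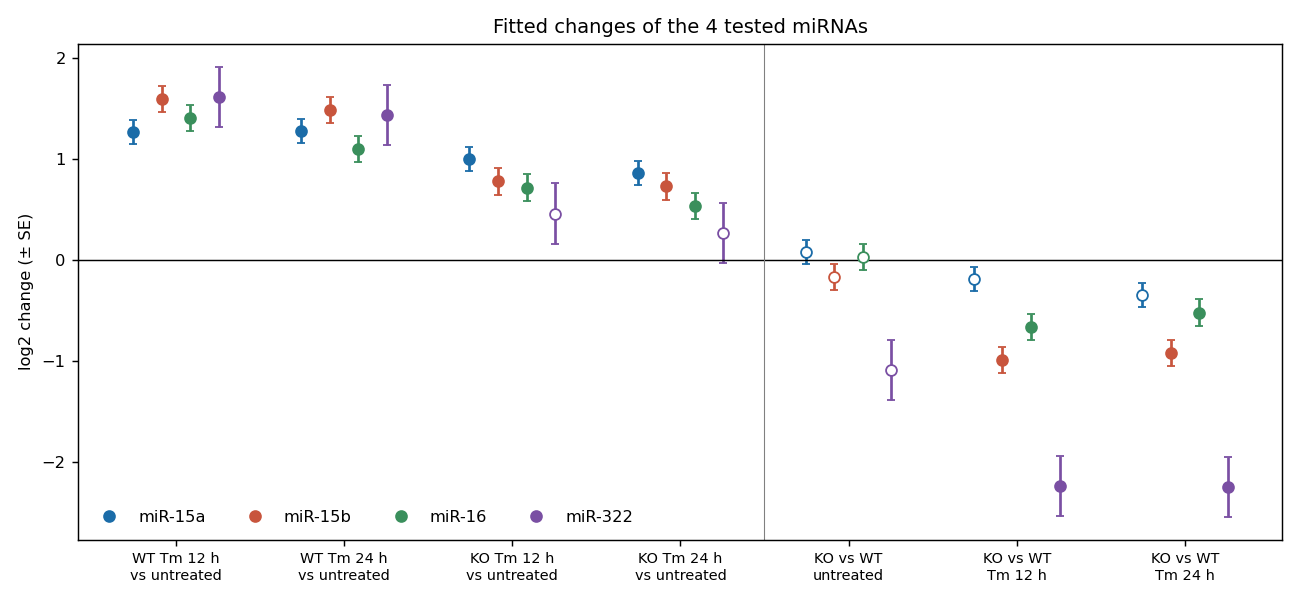
Fitted log2 change with its standard error (vertical axis) of miR-15a, miR-15b, miR-16 and miR-322 in the 4 comparisons of tunicamycin (Tm) with untreated cells and the 3 comparisons of KO with WT cells. Filled symbols passed an adjusted p of 0.05 in limma and open symbols did not. All 4 are filled in the WT comparisons, miR-322 is open in the KO comparisons, and miR-322, mostly undetected on the KO arrays, is the lowest of the 4 in KO against WT at both times of treatment.

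Without treatment, none of the 4 tested members was called different between the genotypes in the fit without a block, where 11.4% of all tested miRNAs were called. At an unadjusted p under 0.05 there was 1. miR-15a differed by 0.08 ± 0.12 (limma adjusted p = 0.848), miR-16 by 0.03 ± 0.13 (adjusted p = 0.969) and miR-15b by -0.17 ± 0.13 (adjusted p = 0.548), KO minus WT. Their 95% intervals were -0.20 to 0.36, -0.27 to 0.34 and -0.46 to 0.13, so a difference of more than about 0.46 in either direction was outside all of them. miR-322 was lower on both untreated KO arrays than on both WT arrays, by 1.45 within run 1 and by 0.73 within run 2 on the log2 scale, and the fitted difference was -1.09 ± 0.30 (adjusted p = 0.0552). It was not detected on the KO array of run 1, and with normexp the difference was -0.27. With the slide run as a block the same difference was called (adjusted p = 0.00672), and with the replicate number as a block too (adjusted p = 0.00828).

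Under tunicamycin, KO cells held less miR-15b, miR-16 and miR-322 than WT cells. At 12 h miR-322 was at 3.66% and 5.30% on the KO arrays, on neither of which it was detected, against 18.4% and 23.6% on the WT arrays. The WT mean was 4.63-fold above the lowest signal that was detected on each KO array or the miRNA's own, whichever was higher. This is not a firm lower bound, since the lowest detected signal is not a detection limit. On KO 24 h replicate 1 miR-322 was detected at 3.15%. The fitted difference was -2.24 ± 0.30 (limma adjusted p = 0.00105), with -2.33 within run 3 and -2.15 within run 4. At 24 h it was at 3.15% and 4.71% against 15.9% and 21.2%, a difference of -2.25 ± 0.30 (adjusted p = 0.00128) with -2.34 and -2.17 within the runs. Since 3 of these 4 KO arrays did not detect miR-322, the sizes of both fitted differences are uncertain.

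The miR-322 difference depended on the background correction. With normexp correction it was -0.24 at 12 h (limma adjusted p = 0.591) and -0.17 at 24 h (adjusted p = 0.718). That correction adds an offset of 50 intensity units to each spot, and so to each of the miRNA's 2 probes before they are summed. Without it, the miRNA's summed intensity on the KO arrays was 9.80 to 23.1. In the scanner software's own total, KO 24 h replicate 1 was given a miR-322 signal of 59.6 where its probe totals sum to 8.80. The 2 numbers agreed to within 1% for 42 of the 44 detected member values. The other exception was miR-16 on KO 24 h replicate 2, with 123.5 against 41.5. With the software's total, the miR-322 difference at 24 h was -1.38 (adjusted p = 0.588), and with the deposited log2 values, which hold those totals, it turned to 0.34.

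miR-15b at 12 h was at 59.7% and 71.2% on the KO arrays and at 127.0% and 131.1% on the WT arrays. The groups did not overlap, and the difference was -0.99 ± 0.13, or 1.98-fold lower (limma adjusted p = 0.000902), with -1.09 and -0.88 within the runs. At 24 h the values were 61.6% and 64.6% against 112.3% and 127.2%, a difference of -0.92 ± 0.13 (adjusted p = 0.00136) with -0.87 and -0.98 within the runs. miR-16 was lower in KO cells by -0.66 ± 0.13 at 12 h (1.58-fold, adjusted p = 0.00564; -0.62 and -0.70 within the runs). At 24 h it differed by -0.52 ± 0.13 (adjusted p = 0.016; -0.37 and -0.67 within the runs), a call lost without either WT 24 h array (0.0722 and 0.0800) or without KO 24 h replicate 2 (0.0801), and the software's total gave 0.22. miR-15a was lower on both KO arrays than on both WT arrays at each time, but the differences of -0.19 ± 0.12 (adjusted p = 0.266) and -0.35 ± 0.12 (adjusted p = 0.0593) were not called. With the slide run as a block the 24 h difference of miR-15a was called (adjusted p = 0.0454), and so it was with the replicate number as a block (0.0413).

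Counted together, 3 of 4 tested members were called lower in KO than in WT cells at 12 h, against 8.52% of all tested miRNAs (38.1% in either direction), and 3 at 24 h, against 7.39% (34.7% in either direction). At each time these were miR-15b, miR-16 and miR-322. miR-322 entered the test only through its WT groups, where it is higher, so its place in the counts is no support of its own. The median difference of the members, miR-322 included, was -0.82 at 12 h and -0.72 at 24 h. All tested miRNAs had medians of 0.23 and 0.25, so the members and the tested miRNAs as a whole had medians of opposite sign on this scaling. With normexp the differences of miR-16 at 12 h (-0.29, limma adjusted p = 0.274) and 24 h (-0.10, adjusted p = 0.672) and of miR-15b at 24 h (-0.53, adjusted p = 0.085) were not called. With the percentile over all mouse miRNAs miR-322 alone was called at each time. Over all 176 miRNAs, normexp called 11 at 12 h and 6 at 24 h, and that percentile 12 and 9. Without scaling the members' 12 h differences were larger, at -0.90 for miR-15a, -1.70 for miR-15b, -1.37 for miR-16 and -2.96 for miR-322. These unscaled values include the brightness of the whole array. The 75th percentile was 446 and 246 on the KO 12 h arrays, against 617 and 477 on the WT 12 h arrays.

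The question in the design text is the difference of the response itself, the tunicamycin change in KO cells minus that in WT cells. At 12 h it was -0.82 ± 0.18 for miR-15b (limma adjusted p = 0.0148), -0.69 ± 0.19 for miR-16 (adjusted p = 0.0323), -1.15 ± 0.42 for miR-322 (adjusted p = 0.09) and -0.27 ± 0.17 for miR-15a (adjusted p = 0.295). So 2 of 4 members had a response called lower in KO cells, where 2.27% of all tested miRNAs did and 22.2% were called higher, 24.4% in all. At 24 h miR-15b alone was called (-0.76 ± 0.18, adjusted p = 0.0234), where 0.568% of tested miRNAs, miR-15b itself, were called lower and 19.9% higher, 20.5% in all. The other values at 24 h were -0.56 ± 0.19 for miR-16 (adjusted p = 0.0789), -1.16 ± 0.42 for miR-322 (adjusted p = 0.0956) and -0.43 ± 0.17 for miR-15a (adjusted p = 0.111). With the slide run as a block, miR-322 was called at 12 h (adjusted p = 0.0116) and at 24 h (0.0143), and with the replicate number as a block likewise (0.0151 and 0.0182). Its sign turned with normexp (0.034 and 0.11) and, at 24 h, with the deposited values (0.98) and the software's total (0.0001).

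The response differences were the least steady of the calls. That of miR-16 at 12 h kept its call in 3 of the 12 fits that left out 1 array, with values from -0.78 to -0.60 and adjusted p from 0.0237 to 0.10. It was lost without each untreated array, each WT 24 h array, each KO 12 h array and WT 12 h replicate 2. That of miR-15b at 12 h was lost only without WT 12 h replicate 2 (adjusted p = 0.0536), and that at 24 h without WT untreated replicate 1 (0.0674), either KO untreated array (0.0540 and 0.0728), KO 24 h replicate 1 (0.0629) or WT 24 h replicate 2 (0.0836). None of the 3 was called with quantile normalization, the percentile over all mouse miRNAs, normexp, the software's total or the deposited values. The sign stayed negative for all 3 under each of these. Over all tested miRNAs, these settings called from 0 to 10 at 12 h and from 0 to 8 at 24 h. Because the untreated arrays of both genotypes are on the other slide, a difference of responses compares changes that each include the slide.

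**Figure D3:**
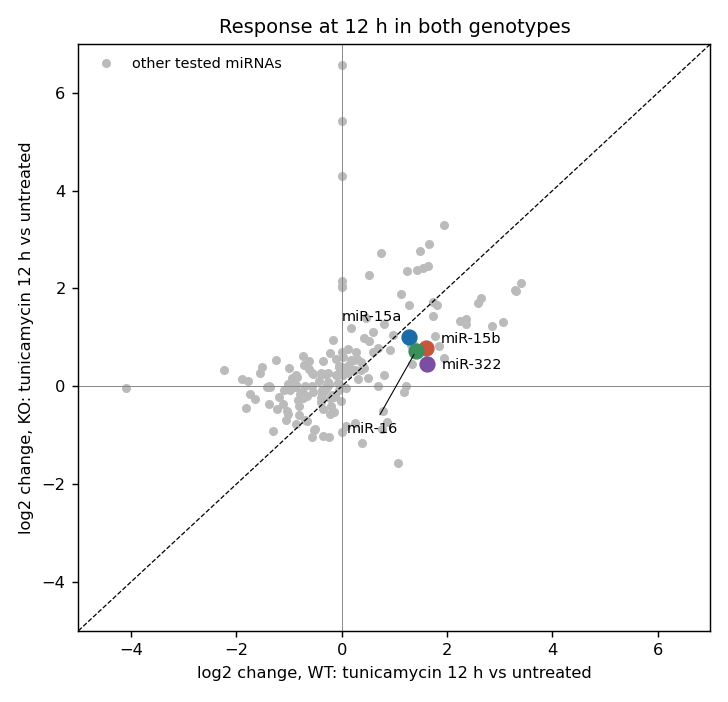
Log2 change after 12 h of tunicamycin in WT cells (horizontal axis) and in KO cells (vertical axis) for the 176 tested miRNAs, with the members in colour and the rest in grey. The dashed line marks equal change. The 4 members sit at WT rises of 1.27 to 1.62 and below the dashed line, at KO rises of 0.46 to 1.00.

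Between 12 h and 24 h of treatment no member was called in either genotype, where 1.14% of tested miRNAs were called in WT cells and 0.568% in KO cells. At an unadjusted p under 0.05 there was 1 in WT cells, miR-16, and 0 in KO cells (limma). miR-16 differed by -0.31 ± 0.13 in WT cells (adjusted p = 0.718), being lower at 24 h in both runs, by 0.23 and 0.38. The other WT differences were 0.01 for miR-15a, -0.11 for miR-15b and -0.18 for miR-322. The KO differences were -0.15 for miR-15a, -0.05 for miR-15b, -0.17 for miR-16 and -0.19 for miR-322. All tested miRNAs had a median of -0.13 in both genotypes.

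Put in order, the groups ranked alike for the 3 bright members, with both untreated groups lowest, the treated KO groups next and the treated WT groups highest. For miR-15b the untreated means were 38.0% ± 1.72 (KO, SD, n = 2) and 42.7% ± 0.0435 (WT), then came 63.1% ± 2.16 (KO 24 h) and 65.4% ± 8.10 (KO 12 h), and then 119.7% ± 10.6 (WT 24 h) and 129.1% ± 2.96 (WT 12 h). Its 24 h and 12 h neighbours overlapped in both genotypes. For miR-16 the order was 22.1% ± 1.46 (WT) and 22.6% ± 0.191 (KO) without treatment, 33.2% ± 4.36 (KO 24 h), 37.2% ± 1.89 (KO 12 h), 47.4% ± 0.756 (WT 24 h) and 58.8% ± 5.14 (WT 12 h). For miR-15a the gap between the treated genotypes was small, from 75.3% ± 4.21 (KO 24 h) and 83.3% ± 1.16 (KO 12 h) to 95.2% ± 6.73 (WT 12 h) and 95.7% ± 2.63 (WT 24 h). miR-322 differed from this order, since all 3 KO groups, at 3.25% ± 0.865, 3.93% ± 1.1 and 4.48% ± 1.16, lay below untreated WT cells at 6.81% ± 0.548.

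A ratio of 2 members on the same array does not depend on the factor by which that array was scaled. Quantile normalization and normexp can change it. These ratios were looked at after the levels had been seen and carry no test. Ratios describe unequal change and not the relative amounts of the miRNAs, since probes differ in brightness. The log2 ratio of miR-15a to miR-15b was 0.00 and -0.23 on the untreated WT arrays, -0.49 and -0.39 at 12 h and -0.26 and -0.38 at 24 h. On the KO arrays it was 0.21 and 0.05, then 0.47 and 0.24, then 0.35 and 0.16. Under treatment it was lower than untreated on the WT arrays. On the KO arrays it was higher at 12 h, while the 24 h values overlapped the untreated ones. Every KO array lay above every WT array. The ratio of miR-15b to miR-16, which share the Smc4 locus, was 0.95 ± 0.09 (SD, n = 2) in untreated WT cells, 1.14 ± 0.09 at 12 h and 1.33 ± 0.10 at 24 h, and 0.75 ± 0.05, 0.81 ± 0.11 and 0.93 ± 0.24 in KO cells.

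The ratio of miR-15b to miR-322 stayed between 2.63 and 2.70 in the group means of WT cells, so both rose by about the same factor there on these values. With normexp the WT rises were unequal, at 1.18 for miR-15b and 0.57 for miR-322 at 12 h and 0.95 and 0.54 at 24 h. On the reported values the ratio was higher in KO cells. It was 3.57 ± 0.32, 3.89 ± 0.20 and 4.03 ± 0.36 in untreated, 12 h and 24 h KO cells. Thus miR-322 was low relative to miR-15b on every KO array, the untreated ones included, though these ratios rest on KO signals that were mostly not detected.

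**Figure D4:**
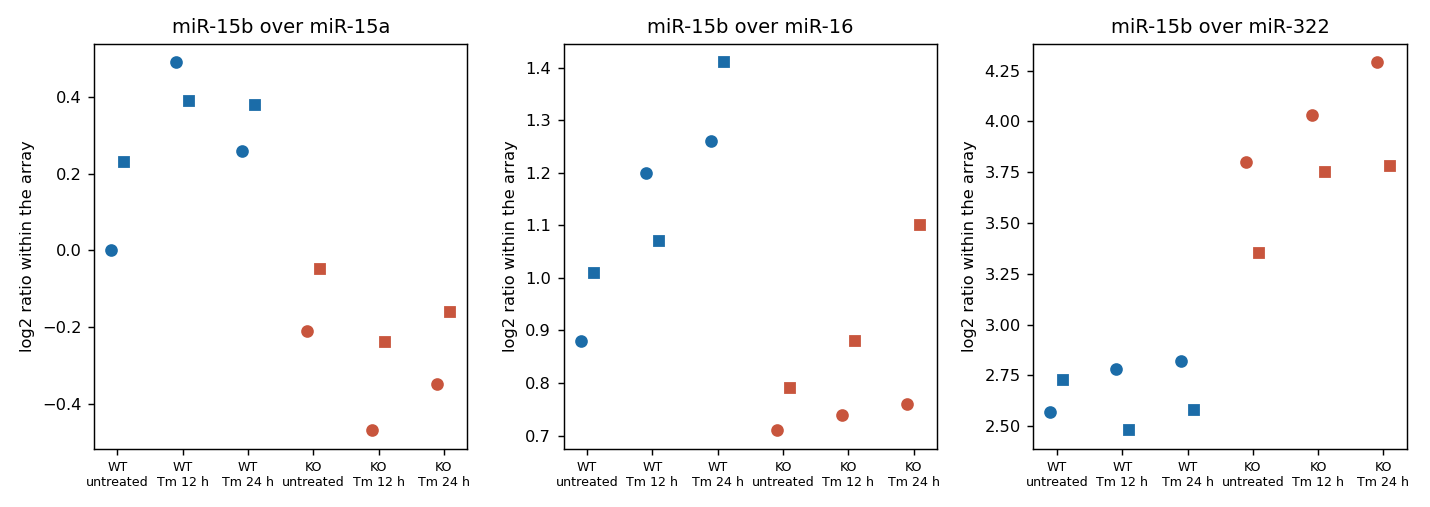
Log2 ratio of miR-15b to miR-15a, to miR-16 and to miR-322 within each array (vertical axes, log2) for the 6 groups of WT (blue) and KO (red) cells, circles replicate 1 and squares replicate 2. The first ratio is 0.00 to 0.49 on the WT arrays and below 0 on the KO arrays, and the last is higher on each KO array than on each WT array.

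Over the 12 arrays, the log2 levels of miR-15b and miR-16 had a Pearson correlation of 0.97, those of miR-15a and miR-16 of 0.94 and those of miR-15a and miR-15b of 0.90. miR-322 followed miR-15b at 0.85, miR-16 at 0.74 and miR-15a at 0.56. miR-16, whose letters come from both loci, tracked its partner at each locus, and miR-322 tracked miR-15a least. High correlation was not particular to a shared locus, since miR-15a and miR-15b lie at different loci. Among the 93 miRNAs detected on every array, those most like miR-15a were miR-92a (0.95), let-7i (0.95) and miR-16. Most like miR-15b were miR-25 (0.97), miR-16 and miR-92a (0.95), and most like miR-16 were miR-15b, miR-92a (0.95) and miR-25 (0.94). For miR-322 they were miR-15b, miR-25 (0.85) and miR-29a (0.79). The arrays share slides, runs and scaling, and groups of arrays differ by treatment, so these correlations are descriptions over 12 arrays that are not independent.

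The 2 probes of miR-15a, miR-15b and miR-16 gave close values. For miR-15b they rose by 1.61 and 1.59 in WT cells at 12 h and differed by -1.07 and -0.94 between KO and WT at that time. For miR-16 the corresponding values were 1.45 and 1.40, and -0.65 and -0.66. For miR-322 they were 1.62 and 1.62, and -1.83 and -2.42. Where KO arrays enter, the miR-322 probes lay further apart, at -0.46 and -1.04 for KO against WT without treatment, 0.00 and 0.34 for KO cells at 24 h and -0.25 and 0.11 for KO 24 h against 12 h. Replicate spots of a probe varied with a median coefficient of variation of 5.22% to 7.55% for miR-15a and miR-15b, of 15.2% and 6.66% for the probes of miR-16, and of 31.6% and 22.9% for those of miR-322, so the dimmer members were measured less exactly.

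**Figure D5:**
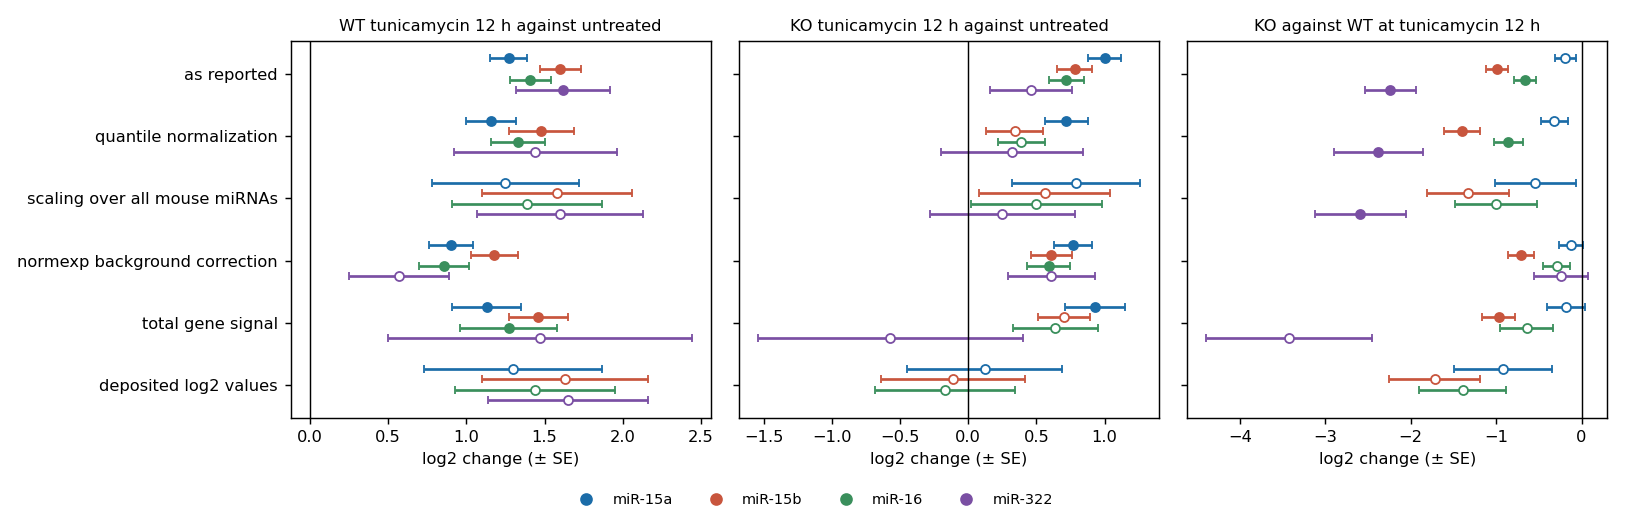
Log2 change with its standard error (horizontal axes) of miR-15a, miR-15b, miR-16 and miR-322 after 12 h of tunicamycin in WT cells, in KO cells, and between KO and WT cells at 12 h, under the scaling reported and 5 alternatives. Filled symbols passed an adjusted p of 0.05 and open ones did not. The WT rises keep their direction in each setting, while the KO rises of miR-15b and miR-16 fall to -0.11 and -0.17 with the deposited values, which are not scaled between arrays.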

How the data were processed

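Mature miRNAs of 12 cultures were measured on 1-colour Agilent arrays from 100 ng of Cy3-labelled total RNA. The deposited scanner tables hold spot intensity on a linear scale, which per the submitters' processing notes came from Agilent Feature Extraction, version 10.7.1.1. The authors' second table holds log2 values. These equalled the software's total gene signal, as a logarithm, to within 1.18e-06, were empty where a miRNA was undetected, and were not scaled between arrays (column medians 5.75 to 6.87). Of columns for samples outside the series there were 0.

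From the background-subtracted intensity, spots without outlier flags were averaged per probe and probes were summed per miRNA. These sums were scaled to the 75th percentile of an array, taken over the 93 miRNAs that all 12 arrays detected. Values were floored at 1.91% of it (log2 -5.71), and log2 was taken. Control spots were left out. The 176 mouse miRNAs that 1 or more groups detected on both arrays were fitted together over all 6 groups with limma 3.58.1 in R 4.3.3 (6 residual and 1.65 prior degrees of freedom). Benjamini-Hochberg adjustment ran over the 176, and a miRNA with an adjusted p under 0.05 is described as called, or as having risen or fallen. There were 11 comparisons. The fit was tested on simulated data with independent noise on each array. That test does not cover the correlated deviations between arrays of a run described below. Sequences and gene positions are from RefSeq tables of GRCm38.p6. All 5 members matched an entry by name.

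The members and the lists of relatives and cell-type markers were chosen with earlier results of these data known. The text names the 5 members in every comparison, the lists of relatives and markers (by name or as counts), and for each tested member the 3 miRNAs with the highest correlation among those detected on every array. The number of arrays limits the precision, with 2 arrays a group.

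A run is a set of arrays with the same scan time in the header of the scanner files. Each slide has 2 runs that hold both genotypes with the same replicate number. Whether the arrays of a run also shared labelling or hybridization was not checked. As a check, each array's deviation from its group mean was correlated with that of the same-numbered arrays of other groups, which gave 0.48 on the untreated slide and 0.76 to 0.91 on the treated one, and -0.38 to -0.05 between slides. Replicate numbers therefore mark the run within a slide, and the fit treats deviations as independent that are not. Alternatives were quantile normalization, the percentile over all mouse miRNAs, normexp, the software's total, the deposited log2 values, a doubled floor, a stricter detection filter, run and replicate blocks, and leaving out each array. The files hold no mean spot signal, so normexp was run on the median signal, with an offset of 50 added to each spot. It left out 9 spots of 1 array whose local background exceeded the spot by more than a fixed margin. Spots that lay below background by less than that margin were kept. That form was chosen after seeing the data.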

Additional observations from a re-analysis of the deposited data

Results flagged for a closer look

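In the fit as reported, the response to tunicamycin was called different between the genotypes for 2 members, by a test of the difference itself. KO minus WT, it was -0.82 for miR-15b at 12 h (limma adjusted p = 0.0148), -0.69 for miR-16 at 12 h (adjusted p = 0.0323) and -0.76 for miR-15b at 24 h (adjusted p = 0.0234). In each case both genotypes rose on the scaled values and the KO rise was the smaller one. Over all tested miRNAs the response difference was called for 24.4% at 12 h and 20.5% at 24 h, most of them higher in KO cells. None of the 3 calls held with quantile normalization, the percentile over all mouse miRNAs, normexp, the software's total or the deposited values. In the 12 fits that left out 1 array, the miR-16 call held in 3. Those of miR-15b held in 11 at 12 h and in 7 at 24 h. The 12 h and 24 h values share their untreated arrays, and the groups of 2 arrays are too small for a check of single arrays that stand apart within a group.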

How the results depend on the processing

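Of 44 member changes, 23 were called, in comparisons where 0.568% to 43.2% of all tested miRNAs were called in either direction. Leaving out 1 array gave 4 members called in WT cells at 12 h and at 24 h, and 3 in KO cells at 12 h and for KO against WT at 12 h. It gave 2 to 3 in KO cells at 24 h, 2 to 4 for KO against WT at 24 h, 0 to 2 for the response difference at 12 h and 0 to 1 at 24 h. Over all 176 miRNAs, those fits called 50 to 79 in WT cells at 24 h. They called 31 to 45 and 32 to 55 in KO cells at 12 h and 24 h, and 44 to 60 for KO against WT at 24 h. With the percentile over all mouse miRNAs, 0 members were called in each comparison of treated with untreated cells (12 h and 24 h, both genotypes), 0 for both response differences, and 1 for KO against WT at each time. Over all 176 miRNAs that setting called 3 and 2 in WT cells at 12 h and 24 h, and 12 and 9 in KO cells. It called 12 and 9 for KO against WT and 4 for each response difference. With the deposited log2 values the corresponding member counts were 0 in all 8, and 0 of all tested miRNAs were called in each. With the software's total the member counts were 2 in WT cells at 24 h, 1 and 0 in KO cells at 12 h and 24 h, 1 for KO against WT at each time and 0 for both response differences. Over all 176 miRNAs that total called 25, then 14 and 10, then 20 and 11, then 8 and 5, in the same order. Quantile normalization gave 1 in KO cells at each time (29 and 25 of all 176 miRNAs) and 0 for both response differences (10 and 8 of all 176). Normexp gave 1 and 0 for KO against WT at 12 h and 24 h (11 and 6 of all 176) and 0 for both response differences (4 and 2 of all 176). The doubled floor gave 3 for the response difference at 24 h (34 of all 176). Over all 176 miRNAs, the calls in WT cells at 12 h ranged from 0 to 89 under these alternatives and from 38 to 69 when 1 array was left out (67 as reported), and those for KO against WT at 12 h from 0 to 91 and from 44 to 70 (67). The response differences ranged from 0 to 61 and from 21 to 44 at 12 h (43), and from 0 to 60 and from 10 to 45 at 24 h (36).

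With the slide run as a block, 1 member was called for KO against WT without treatment (miR-322) and 2 for the response difference at 24 h, and with the replicate block 1 and 2 likewise. Over all 176 miRNAs the run block called 33 and 60 there, and the replicate block 37 and 59. Besides the calls given beside the results, the replicate block changed no other call of a member.

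Signs turned as follows on the log2 scale, with the other end of the range over arrays left out where 1 array turned it. With the deposited values, KO against untreated became -0.21 for miR-15a at 24 h, -0.11 and -0.33 for miR-15b at 12 h and 24 h and -0.17 for miR-16 at 12 h. KO against WT became 0.019 for untreated miR-15b and 0.34 for miR-322 at 24 h, whose response difference became 0.98. The median of all miRNAs in KO cells was -0.47 at 12 h and -0.62 at 24 h on these unscaled values. With the software's total, miR-322 became -0.57 in KO cells at 12 h and 0.0001 for the response difference at 24 h, and miR-16 became 0.22 for KO against WT at 24 h, 0.23 for the response difference at 24 h and -0.015 for KO against WT untreated. With normexp the miR-322 response differences became 0.034 and 0.11. KO against WT without treatment became -0.07 (miR-15a) and -0.12 (miR-16) with the percentile over all miRNAs, -0.025 (miR-16) with normexp, and -0.035 (range to 0.19) and -0.034 (to 0.10) without WT untreated replicate 2. For 24 h against 12 h, miR-15a in WT cells became -0.51 (deposited), -0.034 (percentile over all), -0.024 (quantile), -0.10 (normexp), -0.13 (software's total), and -0.06 (to 0.08) and -0.02 without WT 12 h replicate 1 or WT 24 h replicate 2. In KO cells miR-15b became 0.042 (quantile) and 0.08 (without KO 12 h replicate 2, range from -0.17), miR-16 became 0.44 (deposited) and 0.41 (software's total), and miR-322 became 0.041 (normexp), 1.72 (software's total), 0.08 and 0.10 (without KO 12 h replicate 2 or KO 24 h replicate 1, range from -0.48). miR-322 in KO cells at 24 h became -0.0032 without KO untreated replicate 1 and -0.019 without KO 24 h replicate 2 (range to 0.56), and in WT cells 24 h against 12 h became 0.027 without WT 24 h replicate 1 (range from -0.39). The cause was not tested, except that the software's total for miR-322 and miR-16 on 1 KO 24 h array each exceeds the sum of its probe totals. That total is also 0.1 for miR-322 on both KO 12 h arrays, where it was undetected.

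The planned normexp fit on the mean signal was not run, and the deposited values gave none for miR-322 in the 4 comparisons that use KO 12 h cells, where it was undetected. miR-322 could not enter the fit of the 93 miRNAs detected on every array. Low signal limits miR-322 most: the software did not flag it as detected on 4 of its 6 KO arrays. Its summed background-subtracted intensities there were 9.80 to 16.4.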
